A study of Mus musculus with 6 samples.

Results

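The voltage-gated sodium and calcium channel subunit genes were measured in a pelvic muscle of wild-type and SBMA model mice. They were taken as all genes of the deposited table whose symbol begins with Cacna1, Cacna2d, Cacnb or Cacng, or is Scn, a number and the letter a or b. The rule found 39 of 27131 genes, with 10 calcium channel alpha1 pore subunits, 4 alpha2delta, 4 beta and 8 gamma subunits, 9 sodium channel alpha pore subunits and 4 sodium channel beta subunits. It misses the sodium channel gene that the table spells Scn2a1, which is described apart from the 39. The tissue was the levator ani/bulbocavernosus muscle, an androgen-sensitive striated muscle of the male pelvic floor. The animals were 3 wild-type mice (WT) and 3 mice labelled 113Q, all 14 weeks old and kept on standard chow. The series title gives the model as a knock-in of SBMA. That disease, spinobulbar muscular atrophy, weakens muscle and kills motor neurons, and comes from a lengthened polyglutamine stretch in the androgen receptor. In a knock-in the changed receptor is made from the gene's own locus, in every cell that uses that gene, so muscle and motor neuron both carry it. Strain, litter and sex are not given in the labels used here. Each library is 1 mouse, and the comparison asks how muscle gene expression differs in the knock-in.

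Sodium channel alpha subunits open at a small depolarisation and carry the muscle action potential from the endplate into the transverse tubules. Beta subunits are single-pass membrane proteins that adjust the gating and surface level of the pore. In skeletal muscle the calcium channel of the transverse tubule, made of the Cacna1s pore with the Cacna2d1, Cacnb1 and Cacng1 subunits, acts chiefly as the voltage sensor that opens the ryanodine receptor and releases calcium for contraction. Sodium and calcium channels of brain, heart and smooth muscle are built on the same plan from other family members.

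Library totals ran from 43581087 to 73873481 estimated counts, and the channel subunits held 0.244% to 0.282% of them in each library. Levels are CPM, counts scaled to a common library size with TMM factors, which correct for a few abundant genes taking much of a library. The factors were 0.768 to 0.794 in WT and 1.26 to 1.32 in 113Q, and scaling to library totals alone shifted the genes' median log2 fold change by 0.72. Every difference is therefore one relative to the other transcripts, and a change in total RNA cannot be seen. All 9 myofibre markers fixed for the tissue check were present and all 9 fell, where 18.1% of all tested genes did. Their summed level was 168600 to 191600 CPM in WT against 41380 to 49300 in 113Q. With library totals alone Ttn, Neb and Myh4 did not pass the edgeR test (log2 fold change -0.21, -0.10 and -0.51). Epithelial transcripts marked a single WT library, mouse 2, as well as those of 113Q mice 2 and 3 (summed 40.4, 45.7 and 75.5 CPM, against 0.849 to 1.48 CPM in the others). All 6 endothelial markers fell (297 to 387 CPM summed in WT, 209 to 211 in 113Q), though with library totals alone 3 of them were above 0. In whole muscle, fewer cells of a type and less RNA per cell cannot be told apart.

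In 113Q muscle both main channels of the adult fibre fell. Cacna1s, the voltage sensor of the transverse tubule, fell 1.89 times, and Scn4a, the sodium channel of adult skeletal muscle, fell 1.84 times. The calcium channel gamma subunits Cacng1 and Cacng6 fell 2.12 and 1.83 times, the sodium channel beta subunit Scn4b fell 6.29 times (log2 fold change -2.65, or -3.28 without 113Q mouse 2), and the neuronal-type pore Cacna1e fell 76.2 times. Scn3b, Cacnb2 and Cacna1h rose, all from low levels. Cacna2d1 and Cacnb1, which partner the Cacna1s pore, did not pass the test. Per count of that pore they stood higher in every 113Q mouse than in any WT mouse. A gene that did not change would also stand higher against it, because the pore fell.

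Of the 39 genes, 30 had enough counts to be tested, 12 of the 30 passed an edgeR adjusted p below 0.05 (40.0%), and 34.6% of all 16960 tested genes did. The share of channel genes that passed is thus close to that of the transcriptome. By direction, 9 were lower in 113Q, where 18.1% of all genes were, and 3 were higher, where 16.5% of all genes were. The median log2 fold change of the 30 was -0.21, beside 0.01 for all genes tested. The CPM of the groups did not overlap for 15 of the 30 (11 lower, 4 higher), and for 49.9% of all tested genes (24.8% lower, 25.1% higher). At the adjusted p of 0.05, 3 of the 12 calls held under all other fits run (Cacna1e, Cacnb2 and Scn4b), of which Scn4b did not reach 0.01 with all mice. Another 4 (Cacna1s, Scn4a, Cacng1 and Cacng6) were lost only with library totals alone, where they had log2 fold changes of -0.20, -0.16, -0.37 and -0.15 against a median of 0.73 for all genes.

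**Figure D1:**
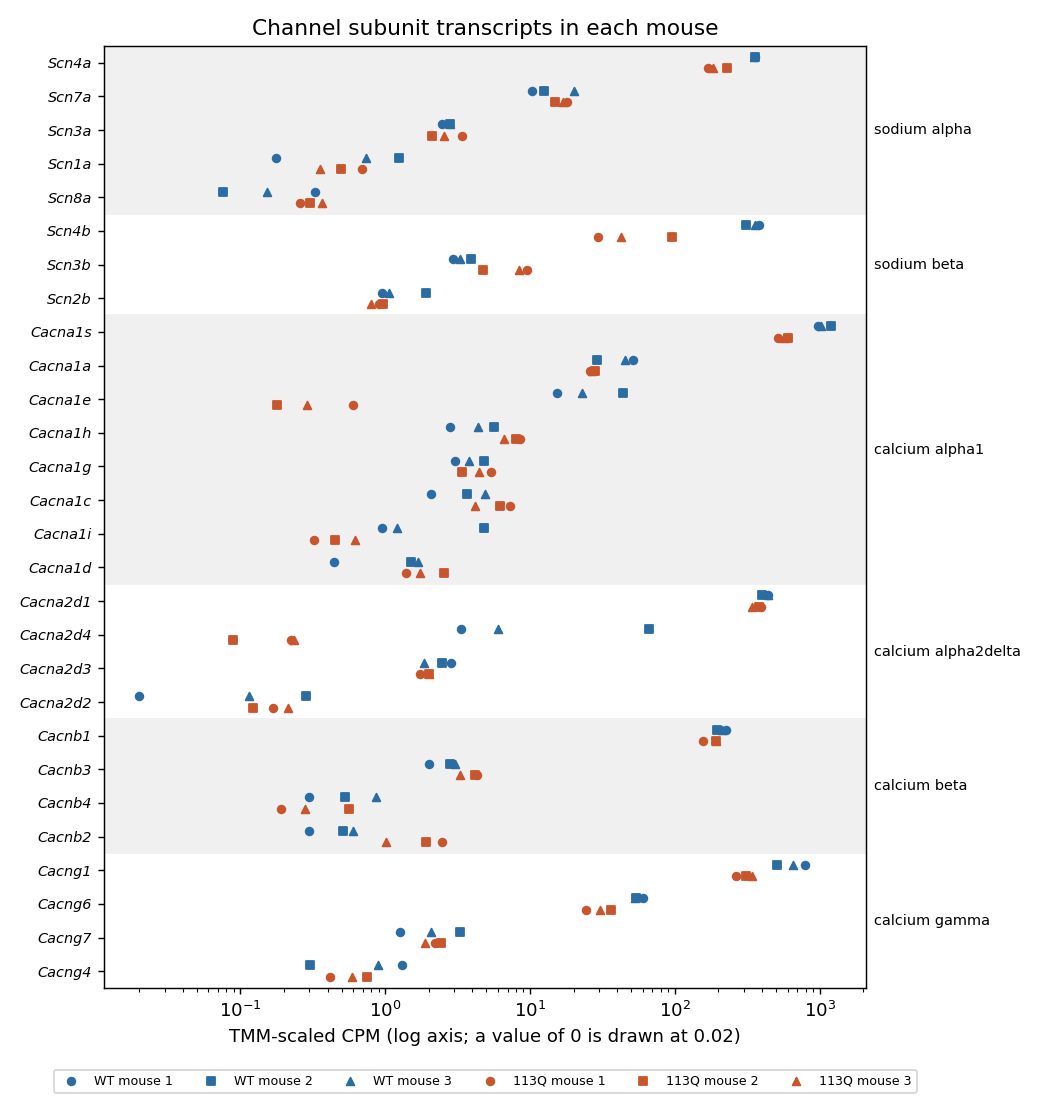
TMM-scaled CPM (log axis) of 28 tested channel subunit genes, 1 point per mouse, blue for WT and red for 113Q, ordered within each subunit family by the WT mean. Cacna1s, Cacng1, Scn4a, Scn4b and Cacna1e in 113Q lie below all WT mice, and the WT points of Cacna2d4 spread from 3.32 to 66.8 CPM.

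Cacna1s, Scn4a, Cacng6 and Scn4b, which fell and have a single start in the RefSeq promoter table, are shown by the 250 bases before and 50 after that start (build GRCm38.p6, 5′ to 3′ on the gene's strand). The windows lie at chr1:136052561-136052860 (plus strand), chr11:106349341-106349640 (minus strand), chr7:3424412-3424711 (plus strand) and chr9:45138374-45138673 (plus strand). In the GENCODE annotation Scn4a starts at 106353288 and Cacng6 at 3424195, so their windows lie wholly inside the gene. The windows of Cacna1s and Scn4b lie partly inside, and that of Scn4b mostly, as Scn4b starts at 45138395. What the Scn4a and Cacng6 windows hold therefore does not describe the bases before the GENCODE start. The Scn4b window holds few such bases. Capitals mark the letters CANNTG, the E-box that myogenic factors are known to bind, which reads the same on both strands.
Cacna1s: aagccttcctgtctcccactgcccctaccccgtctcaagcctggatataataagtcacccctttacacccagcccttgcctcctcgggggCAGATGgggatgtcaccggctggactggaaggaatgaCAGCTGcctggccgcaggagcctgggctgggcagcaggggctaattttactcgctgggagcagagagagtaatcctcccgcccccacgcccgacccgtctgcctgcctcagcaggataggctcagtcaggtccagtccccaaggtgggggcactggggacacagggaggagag
Scn4a: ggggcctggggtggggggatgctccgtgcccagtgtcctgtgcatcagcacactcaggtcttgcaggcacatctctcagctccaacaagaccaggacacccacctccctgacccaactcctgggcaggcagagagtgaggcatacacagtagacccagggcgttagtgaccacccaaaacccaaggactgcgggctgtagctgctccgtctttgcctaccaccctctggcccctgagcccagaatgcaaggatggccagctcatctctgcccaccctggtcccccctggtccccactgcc
Cacng6: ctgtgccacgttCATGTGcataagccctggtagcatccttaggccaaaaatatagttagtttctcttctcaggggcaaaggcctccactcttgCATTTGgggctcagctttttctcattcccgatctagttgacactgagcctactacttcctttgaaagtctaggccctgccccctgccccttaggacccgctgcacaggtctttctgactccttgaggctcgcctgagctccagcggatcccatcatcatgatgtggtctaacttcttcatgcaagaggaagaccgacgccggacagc
Scn4b: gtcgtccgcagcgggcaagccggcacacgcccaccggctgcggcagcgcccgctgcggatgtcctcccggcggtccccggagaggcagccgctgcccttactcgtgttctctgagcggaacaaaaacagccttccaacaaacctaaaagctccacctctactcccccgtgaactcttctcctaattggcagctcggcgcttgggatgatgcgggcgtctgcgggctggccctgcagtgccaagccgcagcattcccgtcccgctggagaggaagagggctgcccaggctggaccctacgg
Cacna1s and Cacng6 each hold 2 E-boxes in the window, 1 of those in Cacna1s is the form CAGCTG, and Scn4a and Scn4b hold 0. Cacna1e, which also fell and has a single start, is not printed, and its window (chr1:154725871-154726170, minus strand) holds 0. In the GENCODE annotation Cacna1e starts at 154884501, so its window too lies wholly inside the gene. That 0 does not describe the bases before the GENCODE start. CANNTG occurs in 72.3% of the 32851 promoter windows of that length and CAGCTG, which is one form of it, in 16.3%. Of the 39 channel genes, 29 matched the table, some with several windows, and these genes have 39 windows in all. CANNTG is in 27 of the 39 channel windows and CAGCTG in 13, which are the counts to set beside those shares. By gene, 23 of the 29 have CANNTG in at least 1 window and 12 have CAGCTG. The letters AGAACA, part of the site known for the androgen receptor and searched on both strands, are in 6 of the 39 channel windows. They are in 19.0% of all windows. The Scn4b window holds them once, after the GENCODE start. The MEF2 motif is in 0 of the 39 channel windows and in 3.19% of all windows. These are matches of letters and not binding sites.

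Of the 6 sodium channel pores tested, 1 fell and 5 did not pass, where 18.1% of all tested genes fell and 16.5% rose. Scn4a (chr11:106318592-106353288, minus strand) was at 355, 357 and 353 CPM in the WT mice and at 169, 228 and 182 CPM in the 113Q mice. The groups did not overlap, and the WT mice lay within a few CPM of each other (354.8 ± 2.04, SD, n = 3, against 192.9 ± 30.7, n = 3). The log2 fold change was -0.88 ± 0.12 (SE; edgeR adjusted p = 0.000751).

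Scn7a, an atypical sodium channel known from glia and other non-fibre cells, was at 10.3 to 20 CPM in WT against 14.98 to 18.1 in 113Q and did not pass (log2 fold change 0.22 ± 0.24; edgeR adjusted p = 0.507). Without WT mouse 3, the highest, the value was 0.55 and passed (edgeR adjusted p = 0.0275). Schwann cell markers summed to 94.1 to 124 CPM in WT against 77.4 to 114 in 113Q, and fibroblast markers to 517 to 893 and 762 to 955 CPM. Their part in Scn7a was not tested.

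Scn3a, a channel of embryonic neurons, did not pass (2.69 ± 0.20 CPM in WT, 2.69 ± 0.66 in 113Q, n = 3 each; edgeR adjusted p = 0.998). Scn1a and Scn8a, both brain channels, stayed at or below 1.25 CPM in all mice and did not pass (edgeR adjusted p = 0.56 and 0.316). Per kilobase of exon, the scale on which genes can be compared, Scn4a held 93.9% to 96.6% of the summed level of the 9 pores in WT and 88.8% to 92.9% in 113Q. Scn7a was next at 2.70% to 5.12% in WT and 5.87% to 9.15% in 113Q. The shares of the 2 groups did not overlap for either gene. Because Scn4a fell, a gene that did not change would also hold a larger share.

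The 3 genes of pain-sensing neurons were scarcely detected. Scn10a had 0 counts in the WT mice and 18, 6 and 4 counts in the 113Q mice, at least 4.75 times higher against a floor of 3 counts over the WT group. Most of these counts came from 113Q mouse 1, and without it the bound was 2.53 times, an alternative chosen after the data were seen. Scn9a summed to 3 counts in WT and 0 in 113Q, and Scn11a to 13 and 7. Of 7 neuronal markers, 5 had too few counts to be tested. The list summed to 2.25 to 3.20 CPM in WT against 2.40 to 3.32 in 113Q. Rbfox3, a neuronal RNA-binding protein, passed as higher (0.0888, 0.151 and 0.308 CPM in WT, 0.849, 0.760 and 0.493 in 113Q; edgeR adjusted p = 0.0195), and Stmn2, a tubulin-binding protein, was at 1.87 to 2.42 CPM in WT, 1.38 to 2.08 in 113Q, and did not pass. Their part in Scn10a was not tested. Scn2a1, a brain channel outside the rule, was at 18.6, 27.7 and 25.8 CPM in WT against 9.68, 10.97 and 10.3 in 113Q, and passed as lower (log2 fold change -1.22 ± 0.15; edgeR adjusted p = 0.00063).

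Sodium channel beta subunits moved in different directions. Scn4b, the beta subunit linked to fast reopening of the pore in neurons, was at 379, 311 and 360 CPM in WT against 29.3, 95.3 and 42.2 in 113Q. All 113Q mice were far below WT, and 113Q mouse 2 stood above the other two. The log2 fold change was -2.65 ± 0.49 (edgeR adjusted p = 0.0125), and -3.28 without 113Q mouse 2. Over the other settings it ranged from -3.65 to -1.94.

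Scn3b, a beta subunit best known from brain and heart, rose from 2.93, 3.89 and 3.31 CPM to 9.49, 4.72 and 8.43 CPM. No 113Q mouse overlapped WT, and the lowest of them, mouse 2, lay close to the highest WT mouse. Its log2 fold change was 1.16 ± 0.27 (edgeR adjusted p = 0.0112, but 0.0685 in limma voom). Scn2b, a beta subunit joined to the pore by a disulfide bond, was at 0.948 to 1.93 CPM in WT against 0.794 to 0.961 in 113Q and did not pass (edgeR adjusted p = 0.231).

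The share of Scn4b in the beta family did not overlap between groups. Per kilobase of exon, Scn4b held 33.9%, 33.2% and 35.7% of the beta subunit level in the WT mice and 5.05%, 10.7% and 5.47% in the 113Q mice. Against Scn4a in the same library, Scn4b counts were 3.83 times lower in 113Q with no overlap. The exact permutation test (two-sided) gave p = 0.1, the smallest that 3 against 3 mice can give, and 0.15 adjusted over the 9 ratios computed; this ratio does not depend on library scaling.

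**Figure D2:**
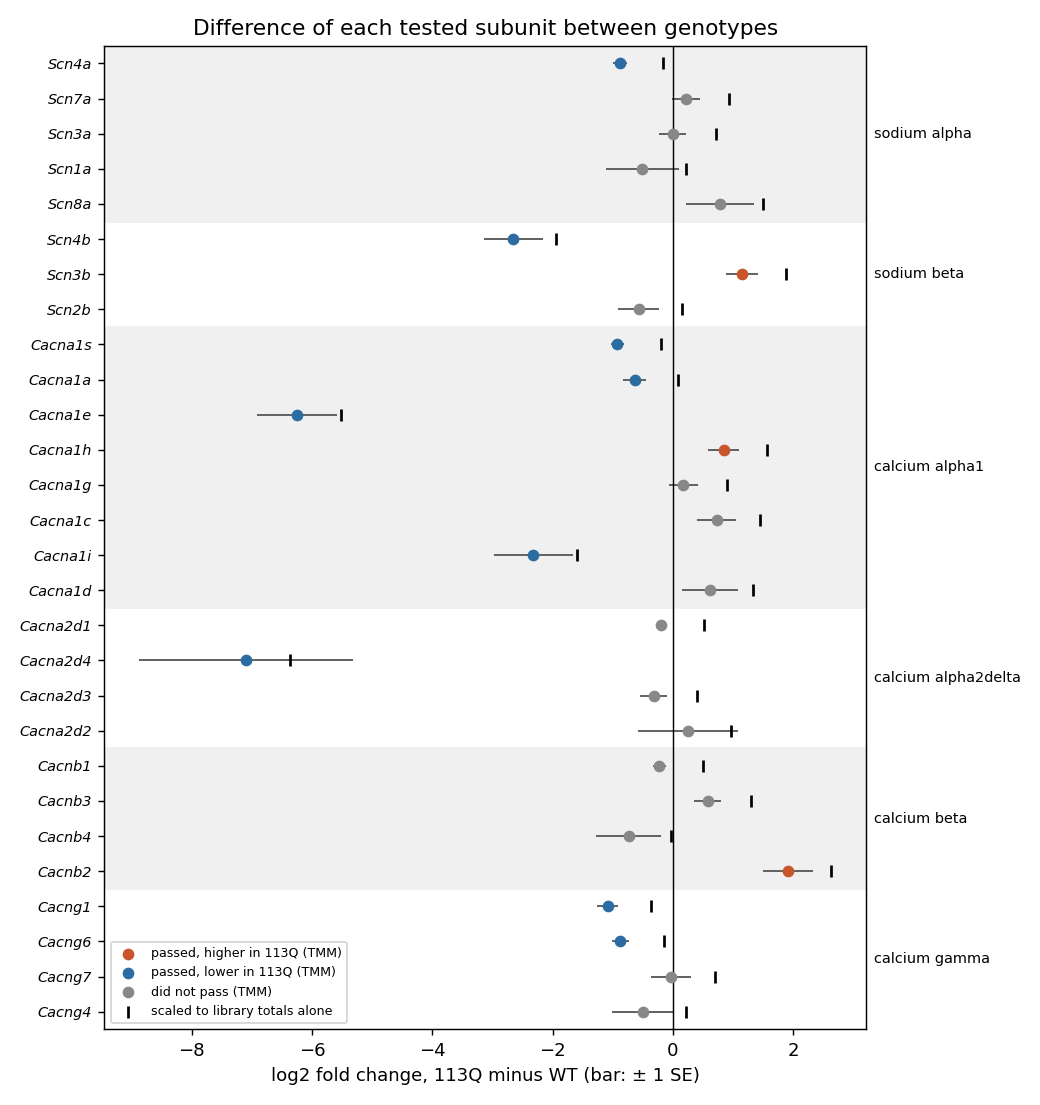
Log2 fold change, 113Q minus WT, of 28 tested genes with TMM scaling (points, bars ± 1 SE) and with library totals alone (black ticks). Points are blue or red where the edgeR adjusted p was below 0.05; Cacna1e and Cacna2d4 lie far to the left on both scalings, and the ticks sit to the right of the points throughout.

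Calcium channel alpha1 pores of the tested set numbered 8, of which 4 fell, 1 rose and 3 did not pass. Among all tested genes 18.1% fell and 16.5% rose. Cacna1s (chr1:136052750-136119822, plus strand) was at 976, 1204 and 1014 CPM in WT against 515, 603 and 571 in 113Q. Every 113Q mouse was well below every WT mouse, with a log2 fold change of -0.92 ± 0.11 (edgeR adjusted p = 0.000498). About 20% of its exon length is overlapped by an antisense gene, Gm37759, that has no entry of its own in the table, and whether the counting used strand is not given. Per kilobase of exon Cacna1s held 96.2% to 96.8% of the summed alpha1 level in WT and 94.9% to 95.8% in 113Q.

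Cacna1e (chr1:154390731-154884501, minus strand), the pore of the R-type current known from neurons and endocrine cells, was at 15.2, 43.6 and 22.9 CPM in WT. In 113Q it was at 0.603, 0.179 and 0.289 CPM, or 54, 16 and 27 counts. The lowest WT mouse lay far above the highest 113Q mouse. The log2 fold change was -6.25 ± 0.66 (edgeR adjusted p = 0.00156), with a range of -6.84 (without 113Q mouse 1) to -4.99 (without the epithelial libraries) over the other settings. Of all tested genes 5.22% passed with a fall of at least 2 times and 5.33% with such a rise; of the channel genes 5 and 2 did.

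Cacna1i, a T-type pore known from the thalamus, was at 0.948, 4.77 and 1.21 CPM in WT against 0.324, 0.447 and 0.622 in 113Q. WT mouse 2 stood apart from the others of its group. The fall passed with all mice (log2 fold change -2.32 ± 0.66; edgeR adjusted p = 0.0326) and not without WT mouse 2 (log2 fold change -1.22; edgeR adjusted p = 0.0544). It also did not pass without any 1 of the 113Q mice (edgeR adjusted p = 0.107, 0.11 and 0.0708).

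Cacna1a, the P/Q-type pore of motor nerve endings and brain, was at 51.4, 29.0 and 45.2 CPM in WT against 25.97, 28.2 and 26.6 in 113Q. WT mouse 2 lay just above the 113Q mice. The log2 fold change was -0.64 ± 0.20 (edgeR adjusted p = 0.0417), but 0.08 with library totals alone. The call was lost without WT mouse 1 or 3 (edgeR adjusted p = 0.107 and 0.117) and without any 113Q mouse (0.123, 0.101 and 0.124). An antisense gene, Gm16183, overlaps 435 bases of its exons and had 222 to 449 counts per library, so without strand some reads could be shared.

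Cacna1h, a T-type pore made by developing muscle, rose from 2.78, 5.68 and 4.39 CPM to 8.57, 8.06 and 6.56 CPM. The groups did not overlap, and the log2 fold change was 0.85 ± 0.26 (edgeR adjusted p = 0.0333). Leaving out WT mouse 1, WT mouse 3, 113Q mouse 1 or 113Q mouse 2 took the adjusted p above the threshold (0.0574, 0.0818, 0.0972 and 0.0916). Relative to Cacna1s in the same library it was 0.287 to 0.473 counts per 100 in WT and 1.15 to 1.67 per 100 in 113Q. That is 3.52 times higher with no overlap (exact permutation p = 0.1, the smallest possible, and adjusted p = 0.15). Cacna1h itself rose 1.80 times and Cacna1s fell 1.89 times, so part of this ratio is the fall of Cacna1s.

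The L-type pores of heart, vessels and neurons did not pass. Cacna1c, the pore of heart and smooth muscle, was at 2.07, 3.70 and 4.85 CPM in WT against 7.27, 6.21 and 4.19 in 113Q (log2 fold change 0.73 ± 0.33; edgeR adjusted p = 0.125). Cacna1d, its relative of neurons and pacemaker cells, was at 0.444 to 1.68 and 1.38 to 2.54 CPM. Cacna1g, the remaining T-type pore, was at 3.05 to 4.81 and 3.40 to 5.35 CPM. Cacna1b, the N-type pore of nerve endings, and Cacna1f, the pore of photoreceptors, were not tested, with 14 and 3 counts in WT and 15 and 2 in 113Q.

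Of the 12 auxiliary subunits of the calcium channel that were tested, 3 fell, 1 rose and 8 did not pass. The share of all tested genes that passed was 34.6% (18.1% lower and 16.5% higher). Cacna2d1, the muscle alpha2delta subunit, was at 440, 396 and 440 CPM in WT against 392, 382 and 342 in 113Q. Its groups lay apart by a few CPM and the log2 fold change of -0.19 ± 0.09 did not pass (edgeR adjusted p = 0.13; 0.53 with library totals alone). Cacnb1, the beta subunit that links the pore to the ryanodine receptor in skeletal muscle, was at 225, 194 and 211 CPM in WT against 157, 191 and 192 in 113Q. It did not pass either (log2 fold change -0.22 ± 0.10; edgeR adjusted p = 0.138; 0.50 with library totals alone).

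Both stood higher against the pore. Cacna1s itself fell (log2 fold change -0.92, beside a median of 0.01 for all genes tested). A gene that did not change would therefore also stand higher against it. Per 100 counts of Cacna1s there were 45.1, 32.9 and 43.4 counts of Cacna2d1 in WT and 76.1, 63.4 and 59.9 in 113Q, 1.65 times more. Cacnb1 had 23.0, 16.1 and 20.8 counts per 100 of Cacna1s in WT and 30.4, 31.7 and 33.7 in 113Q, 1.61 times more. The groups did not overlap in either ratio (exact permutation p = 0.1 for each, the smallest possible; adjusted p = 0.15).

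Both gamma subunits of skeletal muscle fell. Cacng1 (chr11:107703218-107716522, minus strand), which tempers the skeletal channel, was at 788, 506 and 651 CPM in WT against 266, 310 and 341 in 113Q. The 3 mice of 113Q were all lower than any in WT (log2 fold change -1.08 ± 0.17; edgeR adjusted p = 0.00203). Cacng6 (chr7:3424195-3435667, plus strand), the other gamma subunit known from skeletal muscle, was at 60.0, 54.0 and 52.8 CPM in WT against 24.3, 36.5 and 30.5 in 113Q (log2 fold change -0.87 ± 0.14; edgeR adjusted p = 0.00255). The ratios of Cacng1, Cacng6 and Scn4a to Cacna1s overlapped between groups, with differences of -0.15, 0.03 and 0.03 on the log2 scale (exact permutation p = 0.6, 0.8 and 0.9; adjusted p = 0.771, 0.9 and 0.9), and the test at this size does not show that these ratios are equal.

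The neighbours of Cacng6 on chromosome 7 and of Cacng1 on chromosome 11, which are subunits of brain glutamate receptors rather than of muscle channels, stayed near the floor or did not pass. Cacng7 was at 1.27 to 3.28 CPM in WT against 1.90 to 2.45 in 113Q (edgeR adjusted p = 0.967), and Cacng4 at 0.302 to 1.30 and 0.413 to 0.749 CPM (edgeR adjusted p = 0.505). Cacng5 had 6 counts in WT and 4 in 113Q, and Cacng8 had 0 and 4. Of the related brain genes elsewhere in the genome, Cacng2 had 1 and 0 counts and Cacng3 had 0 in all libraries. A single library with 3 counts corresponds to 0.0322 to 0.0888 CPM.

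**Figure D3:**
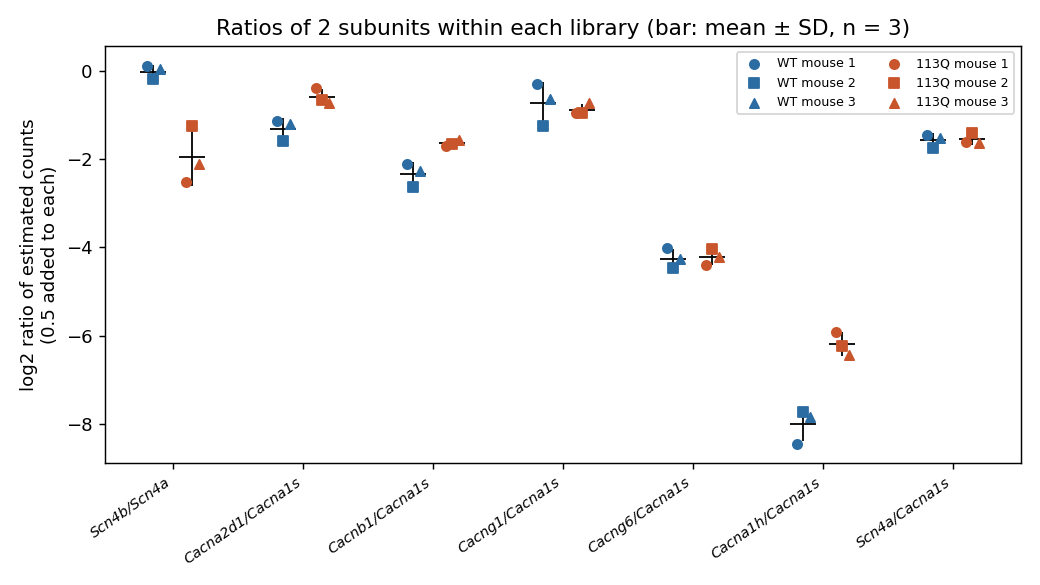
Log2 ratio of the estimated counts of 2 subunits within each library (0.5 added to each count), 1 point per mouse, bars mean ± SD (n = 3). The 3 ratios Cacng1, Cacng6 and Scn4a to Cacna1s overlap between WT and 113Q, and the other 4 shown do not.

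Cacna2d4, an alpha2delta subunit known from retina, was at 3.32, 66.8 and 5.97 CPM in WT against 0.223, 0.0894 and 0.236 in 113Q. WT mouse 2 stood far above the other WT mice, and even the lowest WT mouse was above all 113Q mice. Its log2 fold change of -7.10 ± 1.78 (edgeR adjusted p = 0.0408) was -4.66 without WT mouse 2, and -4.37 without the libraries with epithelial transcripts, which leaves WT mice 1 and 3 and a single 113Q mouse. The call was lost without WT mouse 3 (edgeR adjusted p = 0.0562) and without any 113Q mouse (0.105, 0.139 and 0.124). It was also lost in limma voom (adjusted p = 0.141). The same held in edgeR with no filter on low counts (adjusted p = 0.0593) and with the mouse number as a block (0.0739). Cacna1e and Cacna1i were also highest in WT mouse 2. That library also had epithelial transcripts, and their part in these values was not tested. Cacna2d3, a brain subunit, and Cacna2d2, a subunit of brain and heart, did not pass (edgeR adjusted p = 0.323 and 0.841).

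Cacnb2, the beta subunit of heart and smooth muscle channels, rose from 0.296, 0.510 and 0.597 CPM to 2.47, 1.90 and 1.008 CPM. All 113Q mice were above WT, from mouse 1 down to mouse 3, with a log2 fold change of 1.92 ± 0.42 (edgeR adjusted p = 0.00839). Cacna1c had the same order of the 113Q mice, but so did other channel genes, among them Cacna1h, Cacnb3 and Cacna2d1. The order is thus not particular to Cacnb2 and Cacna1c. Summed over the 6 smooth muscle markers, the WT mice stood at 354, 601 and 798 CPM. For the 113Q mice the sums were 2799, 1798 and 1306, again in that order, and 1 of the 6, Acta2, passed as higher. Smtn, another of the 6, did not follow the order (220.0, 220.3 and 210.3 CPM for 113Q mice 1 to 3). Myh11, the smooth muscle myosin, was at 29.9, 146 and 197 CPM in WT against 864, 547 and 326 in 113Q. Their part in Cacnb2 and Cacna1c was not tested. Cacnb3, a beta subunit of brain and smooth muscle, was at 2.01 to 3.02 CPM in WT against 3.28 to 4.30 in 113Q; the groups did not overlap and the difference did not pass (edgeR adjusted p = 0.074). Cacnb4, a brain subunit with 16.0% of its exon length overlapped by A430018G15Rik on the other strand, did not pass (edgeR adjusted p = 0.339). Satellite cell markers summed to 54.8 to 57.9 CPM in WT against 94.3 to 117 in 113Q. Of these 6 markers 5 rose, where 16.5% of all tested genes did. Their part in the rises of Scn3b and Cacna1h was not tested.

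Lists of genes that work with the channels, and a list of denervation markers, were set beside them. The counts of each list are to be read beside the 18.1% of all tested genes that fell and the 16.5% that rose. Of 16 triad partners, which hold the calcium store next to the voltage sensor, 8 fell, 1 rose and 7 did not pass, with a median log2 fold change of -0.42 against 0.01 for all genes; with library totals alone 2 were lower and 8 higher. Ryr1, the calcium release channel opened by Cacna1s, fell by 1.53 ± 0.15 on the log2 scale (edgeR adjusted p = 0.000219), from 4496 ± 546 to 1557 ± 291 CPM. Casq1, the calcium buffer of the store, fell by 1.23 ± 0.10, Jph1, which tethers the store to the tubule, by 0.78 ± 0.08 and Calm2, one of 3 calmodulin genes, by 0.72 ± 0.08. With library totals alone Jph1 had -0.06 and Calm2 0.01. The gene that rose was Casq2, the slow and heart form of the buffer (log2 fold change 0.99, chosen after its values were seen). Stac3, which brings the calcium channel to the tubule, did not pass (log2 fold change -0.16; edgeR adjusted p = 0.266).

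Of 12 tested genes that anchor or trim sodium channels, 4 fell, 1 rose and 7 did not pass (median log2 fold change -0.07; 2 lower and 7 higher with library totals alone). Sntb1, a syntrophin of the dystrophin complex, fell from 64.2 ± 12.6 to 22.9 ± 2.76 CPM. Nedd4l, a ubiquitin ligase that removes sodium channels from the membrane, fell by 0.47 ± 0.08 on the log2 scale, and Dlg1, a scaffold, passed as lower too (chosen after its values were seen); with library totals alone these were 0.25 and 0.28. Fgf11, of the intracellular fibroblast growth factor homologues that bind sodium channels, rose from 1.54 ± 0.29 to 3.49 ± 0.12 CPM. Ank3, the ankyrin of the sodium channel, did not pass (log2 fold change 0.05; edgeR adjusted p = 0.687).

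Of 13 tested calcium channel regulators, 2 rose, 1 fell and 10 did not pass (median log2 fold change 0.19; 0 lower and 8 higher with library totals alone). Camk2a, a calmodulin kinase, had a log2 fold change of -0.78 ± 0.13, or -0.06 with library totals alone. Camk2d, another kinase of that family, and Cachd1, a relative of the alpha2delta subunits, rose by 0.55 ± 0.13 and 0.82 ± 0.20. Cabp1, a calcium-binding protein of neurons, did not pass (-0.95 ± 0.39; edgeR adjusted p = 0.0967). The RGK proteins Rrad, Gem and Rem1, which lower the surface level of calcium channels, did not pass, and Rem2 had 0 CPM in both groups.

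Of 12 denervation markers, 7 rose, 3 fell and 2 did not pass (median log2 fold change 0.96; 8 higher and 1 lower with library totals alone). Chrna1, the acetylcholine receptor alpha subunit, rose by 2.19 ± 0.13, Ncam1, an adhesion molecule, by 2.104 ± 0.14 and Runx1, a transcription factor, by 2.099 ± 0.20 on the log2 scale (edgeR adjusted p of 0.000154 or less for each). Chrng, the fetal receptor subunit, did not pass (log2 fold change -1.06; edgeR adjusted p = 0.281), and Myh8, the perinatal myosin, fell by 1.29 ± 0.10. Without 113Q mouse 2 or 3, 1 of these genes and not 3 was lower.

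**Figure D4:**
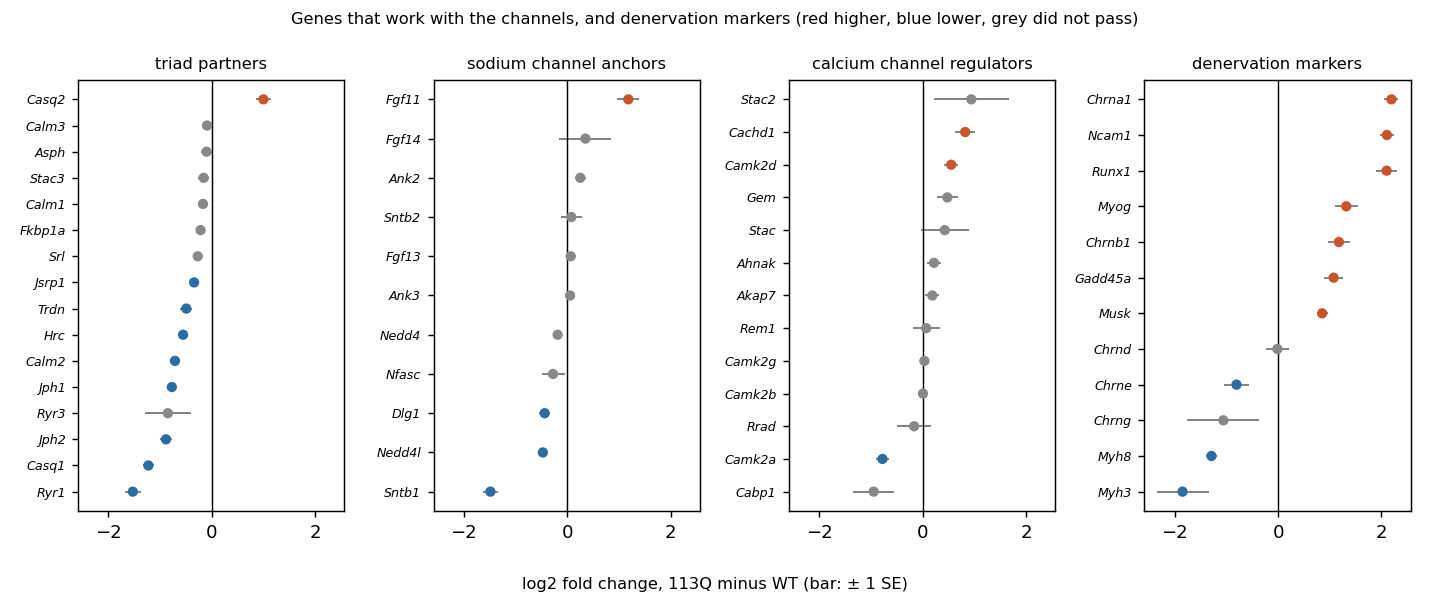
Log2 fold change, 113Q minus WT (points, bars ± 1 SE), of tested genes of 4 lists; red passed as higher, blue as lower, grey did not pass the edgeR adjusted p of 0.05. Of the triad partners 8 lie to the left as calls, with Ryr1 lowest, Casq2 alone to the right as one, and 7 of 12 denervation markers to the right.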

How the data were processed

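The authors deposited 1 table of 27131 genes by 6 libraries of estimated counts, made with Cuffdiff 2.1.1 after TopHat2 2.0.9 and Bowtie2 2.1.0 on build mm10, per the submitters' processing notes; for the gene annotation and the use of strand, the notes used here have no entry. RNA was prepared from frozen muscle with Trizol and made into libraries by a TruSeq protocol, per the labels. Fractional values made up 5.38% to 5.96% of each library and were rounded to whole numbers.

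Groups came from the genotype in the sample labels. Genes were filtered with filterByExpr (minimum count 10), scaled with TMM and tested in edgeR 4.0.16 (R 4.3.3; robust quasi-likelihood F test, two-sided, 113Q minus WT), with Benjamini-Hochberg adjustment over all 16960 genes and a threshold of 0.05. SE is the log2 fold change over the square root of F. Ratios were compared by exact permutation over mice. Levels per kilobase used merged exon lengths of GENCODE M21 (GRCm38, the assembly of mm10); coordinates come from there and promoters from RefSeq. Floors of 3 counts cover counting error only. The labels name separate mice. Scripts were tested on simulated data.

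Every channel gene enters the counts, and a few genes are not reported here one by one; from each partner list up to 4 genes with the smallest p are named, and others are chosen after their values were seen. The channel genes and lists were chosen with earlier results of these data known. Alternatives were DESeq2 1.42.0, limma 3.58.1 voom, other scalings and filters, each mouse left out, a replicate block, a threshold of 0.01 and handling of the epithelial libraries, taken as those where Epcam reached 1 CPM.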

Additional observations from a re-analysis of the deposited data

How the results depend on the processing

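With library totals alone 14 channel genes were higher and 3 lower, in place of 3 and 9, as 11015 of all genes were higher and 710 lower, in place of 2791 and 3078. The triad list then had 8 higher and 2 lower, the anchors 7 and 2, the regulators 8 and 0 and the denervation markers 1 lower. At an adjusted p below 0.01, which is stricter by construction, 1462 and 1962 genes, 1 and 5 channel genes, 0 higher regulators and 1 lower denervation marker passed. Without the libraries with epithelial transcripts, which leaves a single 113Q mouse assumed to vary like the others, 1300 and 1827 genes passed, with 0 higher and 2 lower anchors, 0 higher regulators and 1 lower denervation marker. A term for these libraries gave 2 higher anchors and 2 lower regulators.

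Leaving out 1 mouse gave 2 to 3 higher and 6 to 8 lower channel genes, 1 to 2 higher regulators and 1 to 3 lower denervation markers. The log2 ratio differences to Cacna1s then ran from -0.41 to 0.060 for Cacng1, from -0.082 to 0.15 for Cacng6 and from -0.062 to 0.087 for Scn4a; without the epithelial libraries Cacng6 had -0.26 and Scn4a -0.12. The other 4 ratios reported kept their direction in every setting run. The cause was not tested.

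Signs turned as follows. With library totals alone the log2 fold changes were 0.081 for Cacna1a, 0.53 for Cacna2d1, 0.40 for Cacna2d3, 0.50 for Cacnb1, 0.22 for Cacng4, 0.70 for Cacng7, 0.22 for Scn1a, 0.72 for Scn3a and 0.15 for Scn2b. Upper-quartile factors gave 0.020 for Cacng7 and 0.042 for Scn3a, voom gave 0.056 for Cacng7, and for Scn3a no filter gave 0.019 and the filter of 1 CPM 0.0023. Without the epithelial libraries the values were 0.39 for Cacng7, 0.56 for Scn1a, and 0.37 for Scn3a, and with the term 0.053 for Scn3a. With 1 mouse left out, the values ran from -0.24 to 1.35 for Cacna2d2, -0.29 to 0.38 for Cacng7, -0.95 to 0.13 for Scn1a and -0.20 to 0.15 for Scn3a. Of these genes only Cacna1a had passed the main test.

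The mice share only a number. The deviations of same-numbered mice from their group means correlated at 0.198, 0.236 and -0.274, and those of differently numbered mice at -0.436 to 0.379. Deviations within so small a group are tied to each other, so these values do not show whether the numbers pair the mice. With the number as a replicate block, 2154 and 2583 genes and 2 and 7 channel genes passed, and Cacng7 had 0.066. Low counts limit what can be said of the 9 channel genes that were not tested.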
